A study of Mus musculus with 18 samples.

Results

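Spp1 encodes osteopontin, and its reads were followed through 18 RNA-seq libraries of immune cells sorted from mouse tumours. It is 1 of the 46983 genes in the deposited tables. It was chosen by its measured values, namely its reads, its reads per read of the macrophage genes Lyz2 and C1qa, and its change with the agent D18, so these values are given as a description and carry no test. C57BL/6 females were 6 weeks old when MC38 cells were injected under the skin (MC38 is a colon carcinoma cell line of that strain). They were divided into groups at a mean tumour volume of 100 mm3. For 2 weeks one group received an antibody against the inhibitory receptor PD-1 (200 µg per mouse, 2 times a week), and the other received the same antibody and dose plus D18 (25 µg per mouse, 1 time a week). D18 is known here by its code name. Both groups thus carried the antibody, and no library of untreated tumours was analysed here. From the tumours CD8+ T cells, CD4+ T cells and dendritic cells were sorted, with 3 libraries for each sort and treatment. The labels number these libraries 1 to 3 and do not say whether each came from its own mouse, so their spread may be partly technical.

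Osteopontin is a secreted, acidic phosphoglycoprotein of bone matrix that is also made by activated macrophages and by T cells. It binds integrins through an arginine-glycine-aspartate motif and also binds the hyaluronan receptor CD44, and thrombin and matrix metalloproteinases cut it into fragments with other integrin preferences. In tumours it is best known as a product of macrophages, where high Spp1 is often set against high C1q genes as a description of macrophage states.

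The libraries held between 11170 and 266392 reads, and mitochondrial genes took 2.39% to 71.9% of them. The sorts held more than the labelled cells. The 13 macrophage markers summed to 1164 to 40695 counts per 1000000 reads (CPM) over the 18 libraries, and all 13 had reads in each sort. In the dendritic cell sort these markers summed to 11996 to 38467 CPM, whereas the 12 dendritic cell markers summed to 94.4 to 525 CPM there. The 14 T cell markers reached 12602 CPM in the CD8+ T cell sort but summed to 72.5 and 132 CPM in the CD4+ libraries of anti-PD-1 replicates 1 and 2, against 4727 to 6066 CPM in the other 4 of that sort. In the dendritic cell sort they summed to 2883 CPM in anti-PD-1 replicate 3 and 5352 CPM in D18 replicate 3, against 0 to 269 CPM in the other 4 libraries. Epithelial markers stayed at or below 33.8 CPM, fibroblast markers at or below 269 CPM and B cell markers at or below 530 CPM. NK cell markers reached 1385 CPM and monocyte markers 5052 CPM, both in CD8+ libraries with D18. Most of these sums came from Gzma (1314 CPM) and Ly6c2 (3923 CPM), which CD8+ T cells can also express. Of the other NK cell markers, Ncr1 and Klra8 had no read in the CD8+ sort. Klrb1c had 1 read in anti-PD-1 replicate 1 and 1 in D18 replicate 3. Eomes had 0, 1 and 0 reads without and 6, 19 and 1 with D18. The cell source of these reads was not tested. Osteoclast-type markers reached 639 CPM and neutrophil markers 1522 CPM, the latter in 1 library, dendritic cell sort with D18 replicate 2. Each level given here is therefore that of the sorted material, not of 1 cell type. In such bulk material fewer Spp1-expressing cells and less Spp1 RNA per cell cannot be told apart.

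The gene (ENSMUSG00000029304.14) lies on the plus strand of chromosome 5 at 104435118 to 104441050 of mm10, is protein-coding, and has 7 annotated transcripts with up to 8 exons over 1648 exonic bases. The single gene that overlaps it, Gm42793, is on the same strand and had 2 reads in all 18 libraries. Spp1 stands at the end of a cluster of genes for bone and tooth matrix proteins of the same integrin-binding family. Dspp (dentin sialophosphoprotein, 104170712 to 104180127) had 3 reads in 2 libraries. Dmp1 (dentin matrix protein, 104202613 to 104214102), Ibsp (bone sialoprotein, 104299171 to 104311469) and Mepe (matrix extracellular phosphoglycoprotein, 104325329 to 104338611) had none. Spp1 itself had 2194 reads in 14 of the 18 libraries.

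The 250 bases before its start are shown because the list of transcription factors known to act on Spp1 holds the RUNX factors and Spi1 (PU.1), and motifs of both occur in them. The sequence is from RefSeq (GRCm38.p6, plus strand, chr5:104434861-104435110). Positions are counted from the RefSeq start, base 104435111, which differs from the start of the gene given above because another annotation was used there. Capitals mark the RUNX core ACCACA, which begins 128 bases before the start, and the PU.1-type box GAGGAA, which begins 113 bases before it.
Spp1 promoter: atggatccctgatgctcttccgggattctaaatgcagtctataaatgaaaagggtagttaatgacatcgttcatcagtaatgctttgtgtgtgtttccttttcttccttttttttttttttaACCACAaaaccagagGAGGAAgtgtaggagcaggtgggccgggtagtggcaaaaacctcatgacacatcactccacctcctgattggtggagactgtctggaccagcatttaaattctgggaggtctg
Both strands were searched, and neither marked motif overlaps the other. ACCACA occurs in 14.0% and GAGGAA in 23.3% of the 32851 promoters of that length. The window also holds 1 E-box (CANNTG, in 66.2% of promoters) 98 bases before the start, 1 CCAAT box (in 33.8%) on the other strand, and TATAAA (in 12.4%) 211 bases before the start. The AP-1 letters TGANTCA, found in 6.75% of promoters, are not in this window. These are matches of letters and no binding was measured.

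In the dendritic cell sort Spp1 was lower in every library with D18 than in every library without it. With anti-PD-1 alone the 3 libraries held 277, 195 and 373 Spp1 reads, or 4657, 877 and 2181 CPM. With anti-PD-1 plus D18 they held 55, 0 and 69 reads, or 289, 0 and 408 CPM. Replicate 1 without D18 was the highest of all 18 libraries, with a 95% Wilson interval of 4141 to 5237 CPM, which covers counting error only. The mean was 2572 ± 1920 CPM (SD, n = 3) without and 232 ± 210 CPM (SD, n = 3) with D18, an 11.1-fold lower mean. The fold was 6.59 without anti-PD-1 replicate 1, 7.39 without D18 replicate 2 and 17.8 without D18 replicate 3. The library at 0 was also the shallowest, and 0 of its 11170 reads allows up to 269 CPM (3 reads). That limit lies within the 222 to 375 CPM interval of replicate 1 with D18, so a difference between these 2 libraries was not detectable at this depth. Replicate 2 without D18, the lowest of its group, was 71.9% mitochondrial. Over nuclear reads alone the 3 anti-PD-1 libraries came to 4771, 3116 and 2805 CPM and the D18 libraries to 427, 0 and 505 CPM, which drew the first group together.

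On the scale of log2(normalised reads + 1), where reads are divided by the size factor of the library, the difference in the dendritic cell sort was -4.44 ± 1.69 (SE, n = 3 per group). It was the most negative of the 886 genes tested there, whose median difference was -0.65. All 3 D18 libraries lay below all 3 others for 19.9% of these genes. Without the shallow D18 replicate 2 the difference was -2.77 ± 0.28 around a median of 0.03, rank 3 of 1008 genes counted from the most negative. Over all settings tried it ranged from -5.57 to -2.77.

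Among the CD4+ libraries the Spp1 mean was lower with D18, but the libraries of the treatments overlapped. With anti-PD-1 alone there were 320, 0 and 349 Spp1 reads, or 2110, 0 and 2939 CPM. With D18 there were 1, 0 and 38 reads, or 16.8, 0 and 277 CPM. Replicates 1 and 3 without D18 thus stood far above the rest, and 1 library of each treatment had no read. Replicates 1 and 2 without D18 are those with few T cell reads, 72.5 and 132 CPM of T cell markers. Replicate 1 also had the highest macrophage marker sum of all 18 libraries, 40695 CPM. Cell make-up and treatment are thus not separated in this comparison. The Spp1 means were 1683 ± 1515 CPM and 97.9 ± 155 CPM (SD, n = 3 each), 17.2-fold apart. This fold rests on single libraries: it was 25.8 without anti-PD-1 replicate 2, 10.8 without anti-PD-1 replicate 3, 11.47 without D18 replicate 2 and 200.3 without D18 replicate 3, which left a D18 mean of 8.40 CPM. The log2 difference was -3.28 ± 2.93 (SE, n = 3 per group), rank 4 of 966 genes with a median of 0.03. Without the anti-PD-1 library at 0, which was 67.7% mitochondrial, it was -5.89 ± 1.74 and the most negative of 975 genes. Without anti-PD-1 replicate 3 it was -1.98.

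The Spp1 difference in the CD8+ T cell sort was smaller than its error. The anti-PD-1 libraries held 0, 164 and 311 Spp1 reads, or 0, 864 and 2168 CPM, and the D18 libraries 2, 20 and 20 reads, or 35.8, 75.1 and 256 CPM. The lowest of the 6 was therefore a library without D18 and the highest 2 were its companions. The means were 1011 ± 1091 CPM and 122 ± 118 CPM (SD, n = 3 each), 8.25-fold apart. The fold was 12.4 without anti-PD-1 replicate 1, 3.53 without anti-PD-1 replicate 3 and 18.2 without D18 replicate 3. The log2 difference was -1.47 ± 2.65 (SE, n = 3 per group), rank 113 of 1569 genes with a median of -0.03. Without anti-PD-1 replicate 1, the library at 0, it was -3.93 ± 1.28 and rank 5 of 1577. Without anti-PD-1 replicate 3 it was 0.18.

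**Figure D1:**
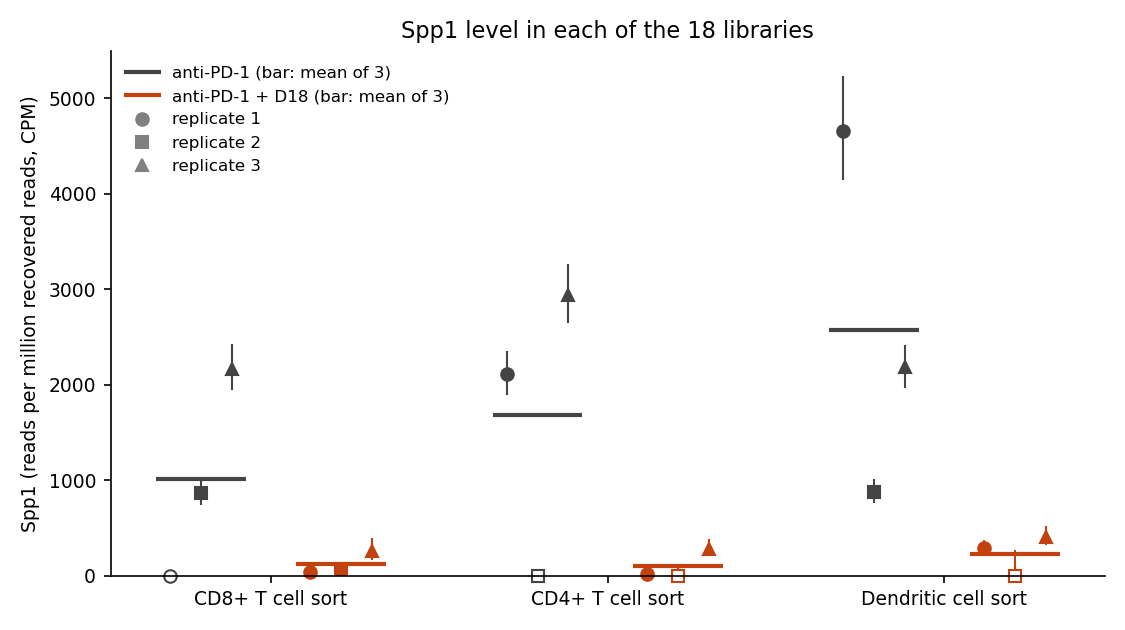
Spp1 level in each of the 18 libraries, in counts per 1000000 reads on the vertical axis, by sort and treatment on the horizontal axis, with 1 point per library (open points had no Spp1 read), thin lines for its 95% Wilson interval (for open points, up to the 3-read limit) and bars for the mean of 3 libraries. The anti-PD-1 libraries reach 4657 CPM in the dendritic cell sort and spread down to 0 in both T cell sorts, and no library with D18 is above 408 CPM.

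Ordered by their means, the 6 groups ran from the dendritic cell sort without D18 (2572 CPM) through the CD4+ (1683 CPM) and CD8+ (1011 CPM) sorts without it to the dendritic cell (232 CPM), CD8+ (122 CPM) and CD4+ (97.9 CPM) sorts with D18. Each neighbouring pair in this order overlapped in range. The gaps between neighbouring means, 889, 672, 779, 110 and 24.6 CPM, were smaller than the larger SD of the pair in each case, so the order within a treatment was not resolved. The highest library with D18, at 408 CPM, was below each of the 7 anti-PD-1 libraries that had a read.

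Where it was read at all in an anti-PD-1 library, Spp1 was among the abundant transcripts. By reads per kilobase of exon it ranked 18, 30 and 35 among all genes in the anti-PD-1 libraries of the dendritic cell sort, 29 and 28 in CD4+ replicates 1 and 3, and 85 and 34 in CD8+ replicates 2 and 3. With D18 its best rank was 239, in the dendritic cell sort. In RPKM, reads per kilobase of exon and per 1000000 reads, it stood at 2826, 532 and 1323 without D18 in the dendritic cell sort, against 3705, 3649 and 2715 for Lyz2, the macrophage and neutrophil lysozyme. With D18 it stood at 175, 0 and 247 against 8243, 1701 and 6239 for Lyz2.

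Both anti-PD-1 libraries without a read of Spp1 held macrophage transcripts. CD8+ replicate 1 had 1391 reads of Apoe, which encodes a lipid carrier made by tumour macrophages, 123 of C1qa, 60 of Lyz2 and 24 of Cd68, so that Apoe made up most of its 1982 macrophage marker reads. Its Lyz2 level, 767 CPM, was below the 5066 and 4363 CPM of its companions. CD4+ replicate 2 had 873 reads of Apoe, 503 of C1qa, 511 of Lyz2 and 124 of Cd68. Their counts of 0 allow up to 38.4 CPM in CD8+ replicate 1 and 20.8 CPM in CD4+ replicate 2 (3 reads each), both far under the 864 CPM of the lowest anti-PD-1 library with Spp1 reads. Counted after these values were seen, 171 genes had at least 50 normalised reads in each of the other 2 anti-PD-1 CD8+ libraries, and 1 of them, Spp1, had no read in replicate 1. Of 109 such genes in the CD4+ sort, 1, again Spp1, had no read in replicate 2. For the D18 libraries without Spp1 the same count gave 0 of 131 genes in CD4+ replicate 2 and 8 of 142 in dendritic cell replicate 2. Spp1 could not be among these genes. Its normalised reads in the other D18 libraries were under 50, at 1.41 and 21.9 (CD4+) and 29.8 and 33.0 (dendritic cell). The D18 counts are therefore not comparable for Spp1, and as it was chosen by its reads, none of these counts is a test.

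Reads per read of Lyz2 set Spp1 against the myeloid RNA of the same library and need no correction for depth. Dendritic cell libraries held 0.955, 0.183 and 0.610 Spp1 reads per Lyz2 read without D18 and 0.0266, 0 and 0.0496 with it. These groups did not overlap, and the log2 difference of (Spp1 + 1)/(Lyz2 + 1) was -3.67 ± 0.76 (SE, n = 3 per group). Lyz2 itself differed by -0.05 ± 1.16 there, with 290, 1068 and 611 reads without and 2068, 25 and 1390 with D18, a value whose sign changed with the scaling (0.42 on CPM). Ratios in the CD4+ sort were 0.595, 0 and 1.22 without and 0.0139, 0 and 0.0324 with D18, a log2 difference of -2.51 ± 3.002. For the CD8+ sort they were 0, 0.171 and 0.497 without and 0.182, 0.0830 and 0.0353 with D18, a log2 difference of -0.27 ± 1.66. The 2 T cell sorts thus overlapped between treatments. The CD8+ ratio of 0.182 rests on 2 Spp1 and 11 Lyz2 reads.

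C1qa, the A chain of the complement protein C1q and a marker of resident-type macrophages, gave the same separation in the dendritic cell sort. Spp1 reads per C1qa read there were 0.965, 0.796 and 0.643 without D18 and 0.112, 0 and 0.170 with it, a log2 difference of -3.12 ± 0.67 (SE, n = 3 per group). They were 0.654, 0 and 1.75 in the CD4+ sort without D18 and 0.0370, 0 and 0.132 with it, a difference of -1.30 ± 3.19. They were 0, 0.573 and 0.663 in the CD8+ sort without D18 and 0.167, 0.625 and 0.115 with it, a difference of 0.84 ± 2.20. The CD8+ difference was negative, -1.25 ± 0.91, without anti-PD-1 replicate 1.

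**Figure D2:**
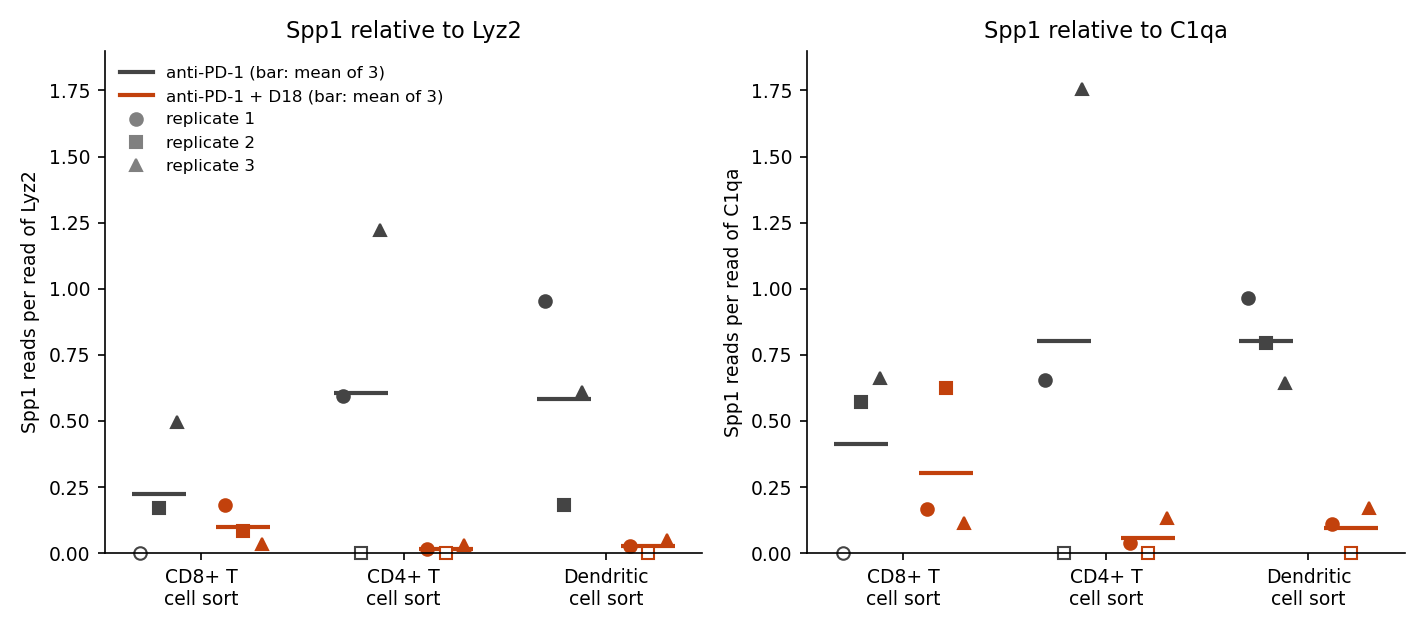
Spp1 reads per read of Lyz2 (left) and per read of C1qa (right) in each library, by sort (horizontal axis) and treatment (colour), with bars for the mean of 3 libraries and open points at 0 for libraries without a Spp1 read. The 3 dendritic cell libraries with D18 lie below the 3 without it in both panels, while the treatments overlap in the CD8+ and CD4+ sorts.

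With the 3 libraries of a group pooled, Spp1 reads per Lyz2 read were 0.429 without and 0.0356 with D18 in dendritic cell libraries, 0.501 and 0.0287 in the CD4+ sort and 0.288 and 0.0513 in the CD8+ sort. These pooled ratios were 12.1-fold, 17.5-fold and 5.62-fold lower with D18, with no spread of their own, and per C1qa read they were 5.65-fold, 5.43-fold and 2.81-fold lower. The summed macrophage markers in the CD8+ sort stood at 25342, 19398 and 33186 CPM without D18 and 1164, 2504 and 21797 CPM with it. In replicate 1 without D18, 25342 CPM of them, mostly Apoe, stood beside 0 Spp1 reads. Within each treatment, the remaining CD8+ libraries had more Spp1 where they had more of these markers. Their Spp1 was 864 and 2168 CPM without and 35.8, 75.1 and 256 CPM with D18, in replicate order. These markers stood at 40695, 23960 and 16323 CPM in the CD4+ sort without D18 and 6117, 24201 and 22645 CPM with it. The dendritic cell sort held 38467, 17163 and 31797 CPM of them without D18 and 26532, 11996 and 24053 CPM with it. Per 100 reads of these 13 markers, the dendritic cell sort held 12.1, 5.11 and 6.86 Spp1 reads without and 1.09, 0 and 1.69 with D18, the CD4+ sort 5.18, 0 and 18.01 without and 0.275, 0 and 1.22 with, and the CD8+ sort 0, 4.46 and 6.53 without and 3.08, 3.0 and 1.18 with. The groups separated in the dendritic cell sort and overlapped in the other 2, and the part of macrophage content in the T cell sorts was not tested.

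One further property divides the libraries along with the treatment. The anti-PD-1 libraries numbered 1 and 2 of each sort had no read of mt-Atp6, mt-Co2 or mt-Co3, genes of the mitochondrial genome, and the other 12 libraries had 5 to 334 of the 3 together. Within those 12 the comparison rests on the libraries without D18 that are numbered 3. These held 2168 (CD8+), 2939 (CD4+) and 2181 CPM (dendritic cell) of Spp1, against 35.8 to 256, 0 to 277 and 0 to 408 CPM with D18. With the library set as a term the log2 differences were -4.78 ± 3.38, -5.90 ± 4.29 and -4.13 ± 2.74 (SE). Between the libraries numbered 3 of both treatments, Spp1 reads per Lyz2 read were 14.1-fold (CD8+), 37.6-fold (CD4+) and 12.3-fold (dendritic cell) lower with D18. These folds compare 1 library with 1 library and have no spread. The CD8+ libraries with D18 numbered 1 and 2 had higher ratios, 0.182 and 0.0830, than number 3, at 0.0353. In the other sorts, numbers 1 and 2 with D18 had lower ratios than number 3.

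**Figure D3:**
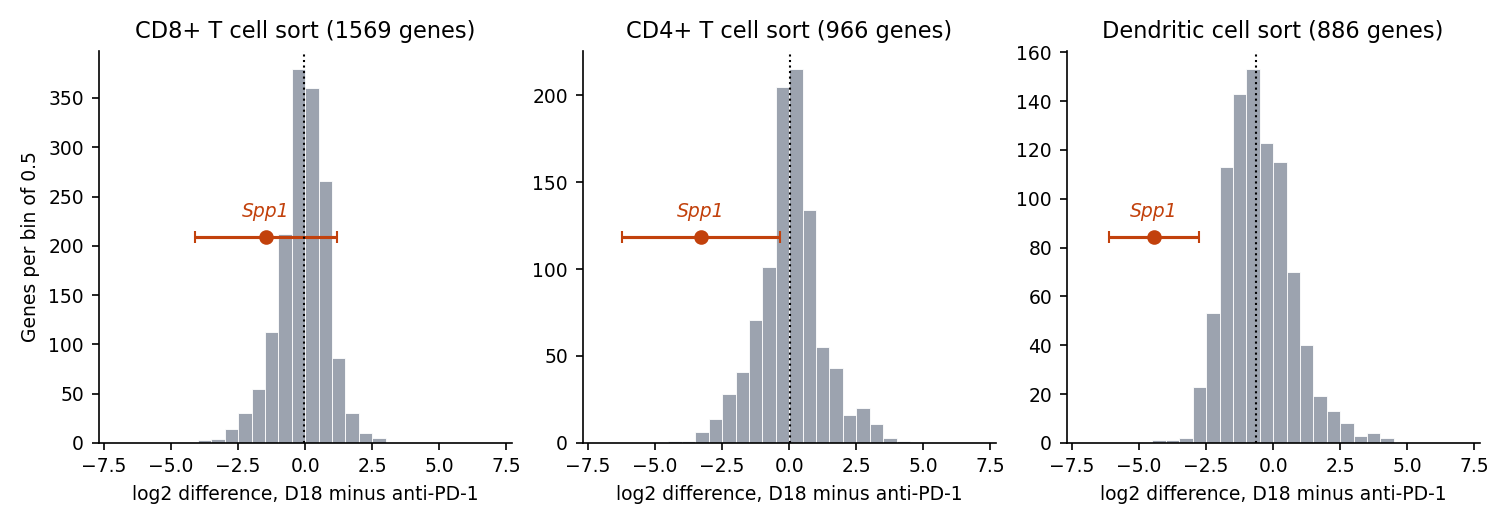
Distribution of the log2 difference with D18 over all genes tested in each sort (horizontal axis, log2 of normalised reads + 1; vertical axis, number of genes per bin of 0.5), with the median of all genes as a dotted line and Spp1 as a point with its SE, whose height has no meaning. Spp1 lies at -1.47 among 1569 genes of the CD8+ sort, at -3.28 among 966 genes of the CD4+ sort and at the lower end, -4.44, among 886 genes of the dendritic cell sort.

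For the genes around Spp1, changes were tested across each whole table with limma, and 0 of 1569, 0 of 966 and 0 of 886 genes passed at an adjusted p of 0.05 in the CD8+, CD4+ and dendritic cell sorts (0% each). At an unadjusted p under 0.05 there were 130, 100 and 61 genes, and limma-voom also called 0 in each. In the CD8+ sort, where same-numbered libraries deviated together, a block for the number let 20 genes (1.27%) pass, and in the other sorts 0. Listed genes among the 20 were Cd72, described further on, and 2 markers of other cells, Ly6c2 (monocytes) and Gzma (cytotoxic lymphocytes). Gzma had no read in the 3 anti-PD-1 CD8+ libraries and 17, 350 and 28 reads with D18 (limma adjusted p = 0.534, and 0.0141 with the block, n = 3 per group). Ly6c2, which activated CD8+ T cells also express, had 67, 135 and 86 reads without and 219, 661 and 107 with D18 (limma adjusted p = 0.534, and 0.0300 with the block, n = 3 per group). Each change of a single gene below is therefore a value with its error, and no list member passed limma's test in this fit without the block. Passes under other settings are named where they occur.

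Of the 11 receptor genes for osteopontin, few had enough reads to test: 2 in the CD8+, 2 in the CD4+ and 1 in the dendritic cell sort. All of these differences were positive, with medians of 0.96, 1.67 and 0.95 against -0.03, 0.03 and -0.65 over all genes. Of all genes tested, 51.7%, 48.4% and 69.1% were lower with D18. Cd44, the hyaluronan receptor, had 13, 7 and 15 reads without and 41, 4 and 30 with D18 in dendritic cell libraries. After division by size factors the D18 libraries were above the others, as for 4.18% of genes, with a log2 difference of 0.95 ± 0.33 (SE, n = 3 per group, limma adjusted p = 0.551). Cd44 in the CD4+ sort had 10, 9 and 12 reads without and 14, 8 and 14 with D18.

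Itgb7, a leukocyte integrin beta chain that pairs with Itga4, had 12, 7 and 21 reads without and 14, 189 and 13 with D18 in the CD8+ sort, a log2 difference of 1.51 ± 0.81 (limma adjusted p = 0.601, n = 3 per group). The D18 libraries were above the others, as for 6.88% of genes in that sort. Itgb7 in the CD4+ sort had 0, 1 and 48 reads without and 19, 22 and 26 with D18, a difference of 2.69 ± 1.57 (limma adjusted p = 0.471, n = 3 per group) that became -0.27 with the library set as a term. The 2 CD4+ libraries at 0 and 1 are those with few T cell reads. Itgav and Itgb1, chains of arginine-glycine-aspartate-binding integrins, had at most 16 and 39 reads in any library, and Itgb5 at most 27. Itga4, Itga5, Itga9 and Itgb3 had at most 15, 13, 5 and 8. Itgb6, the epithelial chain, had 2 reads in all libraries and Itga8 had 0. The largest receptor count in any library was 189, for Itgb7 in the CD8+ sort.

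Of the 10 genes whose products cut or modify osteopontin, 4 were tested in each sort. Of these, 3, 3 and 2 were lower with D18 (CD8+, CD4+, dendritic cell), with medians of -0.59, -0.61 and -0.61. Over all genes tested, 51.7%, 48.4% and 69.1% were lower and the medians were -0.03, 0.03 and -0.65. Mmp12, the macrophage elastase, had 246, 38 and 177 reads without and 152, 0 and 55 with D18 in dendritic cell libraries, a difference of -2.88 ± 2.07 (SE, n = 3 per group) with overlapping groups. Its CD8+ reads were 1, 1 and 166 without and 0, 0 and 21 with D18. Tgm2, the transglutaminase that crosslinks osteopontin, went the other way in the CD4+ and dendritic cell sorts. In the CD8+ sort it had 13, 16 and 12 reads without and 1, 38 and 34 with D18, a difference of 0.01 ± 1.28. It had 10, 8 and 7 reads without and 15, 36 and 54 with D18 in the CD4+ sort, a difference of 2.25 ± 0.54 (limma adjusted p = 0.453, n = 3 per group). The dendritic cell libraries held 17, 1 and 20 Tgm2 reads without and 80, 6 and 70 with D18, a difference of 2.27 ± 0.97 (limma adjusted p = 0.551, n = 3 per group). The D18 libraries were above the others in the CD4+ and dendritic cell sorts, as for 5.28% and 4.18% of genes. Ctsd, the lysosomal protease cathepsin D, differed by -0.72 ± 0.27 in the CD8+ sort, where its D18 libraries were below the others, as for 7.65% of genes. Acp5, the tartrate-resistant phosphatase that removes phosphate from osteopontin, overlapped between treatments in each sort.

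Of the 13 transcription factors known to act on Spp1, 7, 6 and 3 were tested, and 3, 2 and 3 were lower with D18. Their medians were 0.30, 0.88 and -0.96 in the CD8+, CD4+ and dendritic cell sorts. Lower values were found in 51.7%, 48.4% and 69.1% of all genes, with medians of -0.03, 0.03 and -0.65. Spi1, which encodes PU.1, had 67, 55 and 96 reads without and 81, 4 and 60 with D18 in dendritic cell libraries, a difference of -0.96 ± 0.38 with the D18 libraries below the others. Fos, an AP-1 subunit, had 70, 82 and 241 reads without and 76, 1 and 96 with D18 there, a difference of -2.01 ± 1.00, also with the D18 libraries below the others. The D18 libraries were below the others for 19.9% of genes in that sort, and the median of all its genes was itself -0.65. Hif1a, the hypoxia-response factor, had 5, 7 and 28 reads without and 29, 17 and 22 with D18 in the CD4+ sort, a difference of 1.53 ± 0.78. The counts of 5 and 7 are from the libraries with few T cell reads, and with the library set as a term the difference was 0.47. Junb, a second AP-1 subunit, overlapped between treatments in all 3 sorts.

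Of 22 genes that mark Spp1-high tumour macrophages, 13, 12 and 16 were tested, and 10, 8 and 12 were lower with D18. Their medians were -0.53, -0.95 and -0.34 in the CD8+, CD4+ and dendritic cell sorts, against -0.03, 0.03 and -0.65 over all genes. Of all genes tested, 51.7%, 48.4% and 69.1% were lower. Lgals3, encoding galectin-3, had 251, 170 and 343 reads without and 646, 8 and 331 with D18 in dendritic cell libraries, a difference of -0.61 ± 0.95, against -4.44 for Spp1. Arg1, encoding arginase 1, had 8, 236 and 58 reads without and 417, 4 and 153 with D18 there, a difference of 0.78 ± 1.72. The signs of both turned when single libraries were left out. Mif, a macrophage cytokine gene, overlapped between treatments in each sort.

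Apoe was the most abundant gene of that list. It had 660, 1529 and 2386 reads without and 894, 32 and 960 with D18 in dendritic cell libraries, a difference of -1.73 ± 0.64. The D18 libraries there were below the others, as for 19.9% of genes. The CD8+ sort held 1391, 1268 and 2103 Apoe reads without and 19, 38 and 444 with D18, a difference of -4.26 ± 1.80 (limma adjusted p = 0.551, n = 3 per group). Without D18 replicate 3 it passed the test, but that library had the most Apoe of the D18 group, 5693 CPM against 340 and 143. The pass thus rests on leaving out the D18 library nearest to the anti-PD-1 group. The CD4+ libraries had 3729, 873 and 795 Apoe reads without and 163, 373 and 668 with D18, a difference of -1.48 ± 0.82. By value the Apoe difference was larger than that of Spp1 in the CD8+ sort and smaller in the other 2, a contrast that was not tested.

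Genes of C1q-high resident-type macrophages were lower with D18 in 8 of 8, 7 of 7 and 7 of 8 tested members, with medians of -2.19, -1.65 and -1.28 in the CD8+, CD4+ and dendritic cell sorts. A difference below 0 was found in 51.7%, 48.4% and 69.1% of all genes. C1qa had 123, 286 and 469 reads without and 12, 32 and 174 with D18 in the CD8+ sort, a difference of -2.40 ± 1.49. The CD4+ sort held 489, 503 and 199 C1qa reads without and 27, 63 and 287 with D18, a difference of -1.69 ± 0.89. The dendritic cell sort held 287, 245 and 580 C1qa reads without and 491, 25 and 406 with D18, a difference of -0.59 ± 0.34, close to the median of that sort.

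Ms4a7, another macrophage surface gene of that list, differed by -3.13 ± 1.71 in the CD8+ and -2.62 ± 1.45 in the CD4+ sort. Cd72, which encodes an inhibitory receptor of B cells and macrophages, was the member that passed with the replicate block in the CD8+ sort. It had 14, 47 and 73 reads without and 1, 0 and 11 with D18 there, a difference of -3.14 ± 1.37 (limma adjusted p = 0.564, and 0.0382 with the block, n = 3 per group). Cd72 in the CD4+ sort had 98, 41 and 40 reads without and 5, 13 and 23 with D18, a difference of -1.65 ± 0.62. In dendritic cell libraries it had 58, 63 and 88 reads without and 44, 1 and 22 with D18, a difference of -2.25 ± 0.64. The D18 libraries of Cd72 were below the others in all 3 sorts, as for 7.65%, 9.21% and 19.9% of genes.

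The interferon-induced genes, which are often set against Spp1 in tumour macrophages, had 3, 3 and 2 tested members of 8. Of these, 3, 2 and 2 were higher with D18, with medians of 0.77, 0.23 and 0.99. All genes had medians of -0.03, 0.03 and -0.65, and 51.7%, 48.4% and 69.1% of them were lower. Cxcl9, the T cell attracting chemokine, was too low to test. It had at most 2 reads in any of the 9 libraries without D18, and with D18 it had 0, 50 and 9 reads (CD8+), 4, 8 and 13 reads (CD4+) and 13, 8 and 24 reads (dendritic cell). Reads of Cxcl9 were thus found in 8 of the 9 libraries with D18, at counts that are small. Without D18 its reads were 0, 0 and 1 (CD8+), 0, 0 and 1 (CD4+) and 1, 0 and 2 (dendritic cell). Gbp2, an interferon-induced GTPase, had 1, 28 and 11 reads without and 45, 4 and 74 with D18 in dendritic cell libraries, a difference of 1.86 ± 1.16. Gbp2 in the CD4+ sort had 10, 0 and 18 reads without and 13, 22 and 44 with D18, a difference of 2.58 ± 1.17 (limma adjusted p = 0.453, n = 3 per group). Its D18 libraries there were above the others, as for 5.28% of genes. In the CD8+ sort Gbp2 differed by 1.29 ± 0.98. Cxcl10, a related chemokine, and Irf1, an interferon response factor, overlapped between treatments wherever they were tested.

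**Figure D4:**
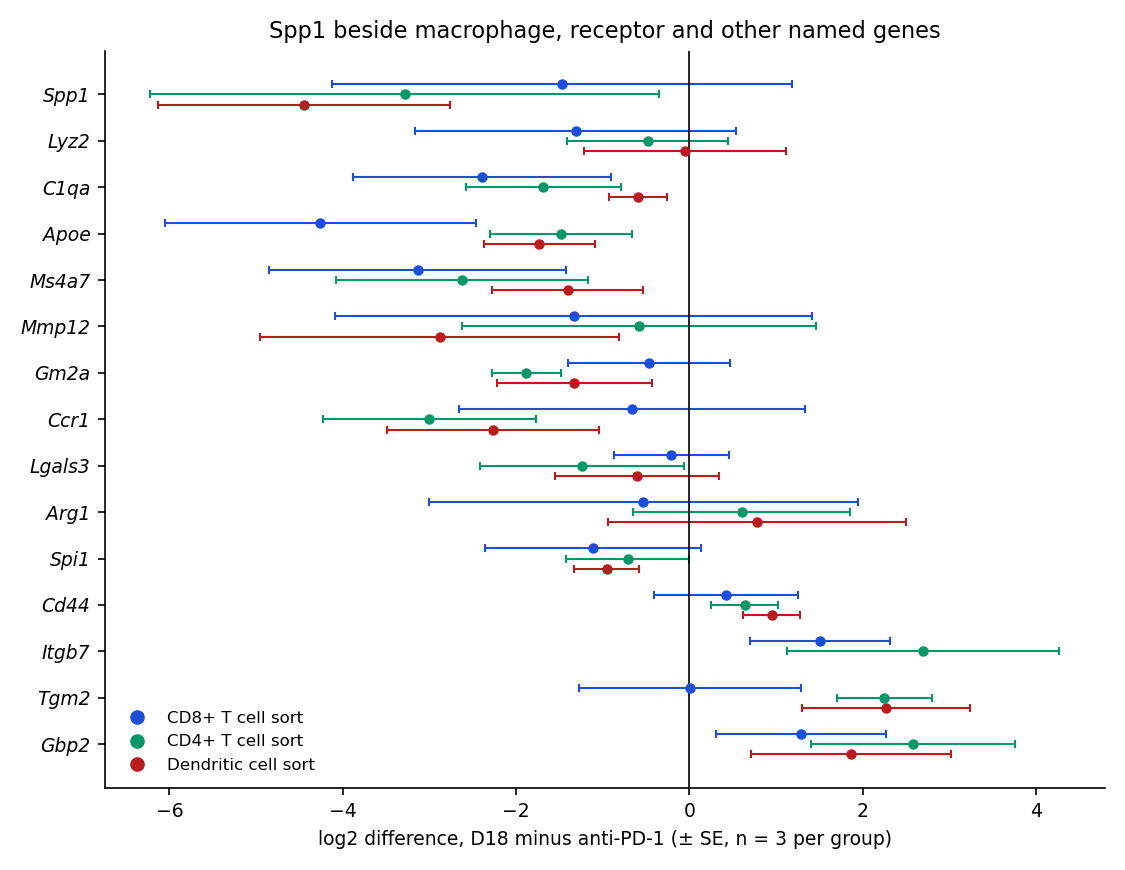
Log2 difference with D18 (horizontal axis, point ± SE, 3 libraries per group) for Spp1 and 14 other named genes (rows) in the 3 sorts (colours), with no point where a gene was too low to test. Among these genes Spp1 has the most negative point in the dendritic cell (-4.44) and CD4+ (-3.28) sorts and Apoe in the CD8+ sort (-4.26), while Cd44, Itgb7 and Gbp2 are positive wherever they were tested.

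The genes whose level ran most like that of Spp1 were ranked by Pearson r of log2(CPM + 10) over all 18 libraries, among 1198 genes with a mean of at least 100 CPM. The points share the library, its depth and its macrophage content, so r is given as a description. Lamp2, a lysosomal membrane protein gene, came first with r = 0.82 (Spearman rho 0.92). Without 2 of the libraries farthest from the Spp1 median r was 0.86. All libraries without a Spp1 read tied as farthest, and the 2 left out were replicate 2 with D18 of the CD4+ and dendritic cell sorts. Gm2a, encoding the GM2 ganglioside activator of the lysosome, followed at 0.79 (0.75 without these 2), then Necap2, an endocytosis gene, at 0.78 (0.87), and Mmp12 at 0.78 (0.73). Gabarap, an autophagy gene, reached 0.77 (0.73), Ckb, a creatine kinase gene, 0.74 (0.91), Gsn, encoding gelsolin, 0.74 (0.84), and Ccr1, a chemokine receptor gene, 0.73 (0.69). Over the 9 anti-PD-1 libraries alone r was 0.99 for Lamp2 and 0.76 for Gm2a, and over the 9 with D18 it was 0.56 and 0.75.

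Over all 18 libraries 5 macrophage genes had lower r. Lgals3 stood at rank 28 (r = 0.65), Arg1 at 167 (0.46), Lyz2 at 177 (0.44), C1qa at 320 (0.34) and Apoe at 336 (0.33). Within a treatment the order was another. Over the 9 libraries with D18 r was 0.86 for Lgals3 and 0.50 for Arg1, and over the 9 without D18 it was 0.62 and 0.79. C1qa and Apoe stayed at or below 0.22 in both. The genes most like Spp1 were chosen over these same libraries. Lower values with D18, and few reads where Spp1 had none, are partly built into that choice. Among them Gm2a had 150, 70 and 105 reads without and 12, 9 and 63 with D18 in the CD4+ sort, a difference of -1.88 ± 0.40. Its D18 libraries were below the others, as for 9.21% of genes there. Ccr1 had 69, 29 and 9 reads without and 0, 1 and 12 with D18 there, a difference of -3.00 ± 1.23 with overlapping groups. In CD4+ anti-PD-1 replicate 2, where Spp1 had 0 reads, Gm2a kept 70 and Ccr1 29, while Lamp2 had 5 and Necap2 had 2.

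**Figure D5:**
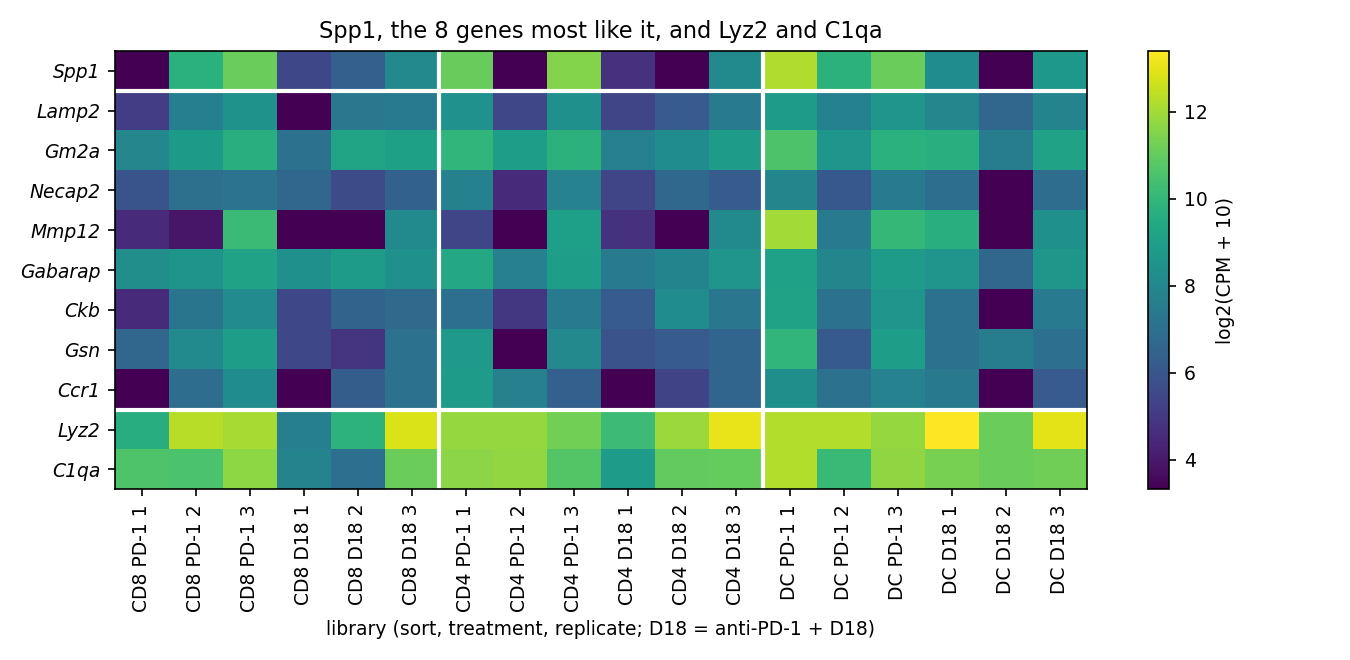
Spp1, the 8 genes most like it, and Lyz2 and C1qa (rows) in the 18 libraries (columns), coloured by log2(CPM + 10) from dark (low) to yellow (high). The 2 anti-PD-1 libraries without Spp1 reads held 2 and 5 reads of Lamp2 and 4 and 2 of Necap2, and Gm2a and Gabarap have reads in every column. The 8 genes were chosen for running with Spp1 over these libraries.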

How the data were processed

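Bulk RNA of 18 libraries, 3 for each of 3 sorts and 2 treatments, was prepared by Smart-Seq2, per the labels' protocols, which keeps no strand and has no molecular identifiers. The tools are STAR 2.4.0, HTSeq 0.6.1 and DESeq2 (its version not given in the sources used here), with mm10 as the build, per the submitters' processing notes. The deposited tables, 1 per sort, hold log2 values made by the authors from reads over size factors, and the transform is not named. The values followed a variance-stabilising transform, and undoing it gave whole reads for 100% of values (tolerance 0.001). The size factors these imply equal median-ratio factors (largest relative difference 1.7e-14). Symbols matched 46488 IDs (98.9%).

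CPM were taken over recovered reads, because the sorts were normalised apart. Changes were fitted in limma 3.58.1 (R 4.3.3, empirical Bayes with trend, robust) on log2(normalised reads + 1), per sort, for genes with a mean of at least 10, with Benjamini-Hochberg adjustment over each table and a threshold of 0.05. The test was tested on simulated data. Printed SE are ordinary residual SE of the difference. Tables used Python 3.11.15, numpy 2.4.6, pandas 2.3.3 and scipy 1.17.1, and figures matplotlib 3.10.9. Spp1, the gene lists and the tests were chosen with earlier results of these data known. Named genes are Spp1, Lyz2, C1qa, every receptor, the 4 members with the largest mean CPM of each other list of roles, listed genes that pass a test, and the 8 genes most like Spp1. Whether groups overlap was read from normalised reads.

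Deviations of same-numbered libraries from their group means correlated at 0.36, 0.51 and 0.56 in the CD8+ sort, so the replicate numbers were taken to pair it. They correlated at -0.14, 0.15 and -0.20 in the CD4+ and 0.03, -0.09 and 0.14 in the dendritic cell sort. Alternatives were pseudocounts of 0.1 and 10, no filter, a mean of at least 100, CPM over all or nuclear reads, the deposited log2 values, the replicate block, a term for the library set, limma-voom, other ratio references and pseudocounts, and each library left out. Omission of the libraries numbered 3, and of libraries over 50% mitochondrial or under 20000 reads, was added after the data were seen.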

Additional observations from a re-analysis of the deposited data

How the results depend on the processing

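The lower Spp1 in the dendritic cell sort kept its direction under all 18 alternatives run, and its ratios to Lyz2 and C1qa under all 9 each. In the CD4+ sort the Spp1 difference kept its direction under 17 of 17, from -5.90 to -1.98. In the CD8+ sort the Spp1 difference was -4.78 with a term for the library set and ranged from -3.93 to 0.18 with single libraries left out. The CD8+ ratio to Lyz2 became 1.19 with summed macrophage markers as the reference and ranged from -1.65 to 0.81 with single libraries left out, and that to C1qa from -1.25 to 1.93. The CD4+ ratio to C1qa ranged from -4.33 to 0.56, positive without anti-PD-1 replicate 3. The cause was not tested.

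Genes passing in the CD8+ sort numbered 22 with no filter and 1 on the deposited log2 values, and with the replicate block 20. Leaving out single libraries gave 0 to 3. In the CD4+ sort they numbered 29 with no filter, 0 to 20 with single libraries left out and 35 without the libraries numbered 3. In the dendritic cell sort they numbered 1 without the libraries numbered 3 and 17 without libraries over 50% mitochondrial or under 20000 reads. The block left every Spp1 difference in place, with SE of 1.86, 1.89 and 1.64 in the CD8+, CD4+ and dendritic cell sorts, and among the genes named it changed the calls of Cd72, Ly6c2 and Gzma in the CD8+ sort.

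Lyz2 in the dendritic cell sort turned positive on CPM over all reads (0.42), over nuclear reads (0.042), with the library set (0.63), in limma-voom (0.14) and without the libraries of low quality above (1.53), and ranged from -0.71 to 0.89 with single libraries left out. Itgb7 in the CD4+ sort became -0.27 with the library set. In the dendritic cell sort Arg1 ranged from -0.27 to 2.09 and Lgals3 from -1.33 to 0.25 with single libraries left out, and Lgals3 was 0.18 without the libraries of low quality. Without D18 replicate 3, the D18 library of that sort with the most Apoe, Apoe passed in the CD8+ sort (-5.94, limma adjusted p = 0.00964). Gbp2 passed in the dendritic cell sort without the libraries of low quality (3.09, limma adjusted p = 0.0398), and Ms4a7 in the CD4+ sort without the libraries numbered 3 (-4.16, limma adjusted p = 0.0420). With no filter Cd72 passed in the CD8+ sort and Apoe and Ms4a7 in the CD4+ sort. A mean of at least 100 left Spp1 untested in both T cell sorts, and the CD8+ sort had no library of low quality. Scaling by all reads moved the median of all genes in the CD4+ sort from 0.03 to 0.69.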
